A study of Mus musculus with 10 samples.

Results

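Cluster 12 of the paraventricular hypothalamus (PVH) was a small group of oxytocin-expressing neurons that also carried *Reln*, *Ntng1* and *Inhbb*, and it was set against cluster 1, the large oxytocin cluster. Its members were the 35 cells that the authors' cell table assigns to that cluster number, of 706 cells in all. All 35 lay on 6 plates, namely AL5 (4 cells), AL6 (7), JM5 (10), JM6 (8), JM7 (3) and JM8 (3), where they made up 35 of 357 PVH cells (9.80%, 95% Clopper-Pearson interval 6.92% to 13.4%). The 4 plates with the prefix Q held 307 PVH cells, of which 107 were of cluster 1 and 0 of cluster 12 (upper limit of the share 0.977%). The cell table gives the prefix as a batch, without saying what it marks, so the batch and the presence of cluster 12 cannot be told apart for the Q plates. On the 6 plates, cluster 1 had 114 cells (30, 41, 11, 17, 8 and 7 in the same order).

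The study picked single cells by hand from PVH tissue of male mice older than 7 weeks, from a cross of *Agrp-IRES-Cre* and *Ai9* (the Cre line drives a red reporter in AGRP neurons), and counted transcripts of each cell as unique molecular identifiers (UMIs). All mice were of this cross, no treatment was compared, and which animals fed which plate is not given in the sources used here. The plate was therefore the replicate, and p-values measure only the spread between plates. The labels describe the picked cells as labelled neurons, while in the methods AGRP axons only served to locate the PVH border, and *Agrp* was at 0 in all 35 cells.

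Oxytocin neurons of the PVH are of 2 classical kinds. Magnocellular neurons send axons to the posterior pituitary and release oxytocin into the blood, and they carry a very large load of prohormone mRNA. Parvocellular neurons are smaller and project within the brain, to the brainstem and the spinal cord. Reelin, encoded by *Reln*, is a secreted matrix protein, netrin-G1, encoded by *Ntng1*, is a membrane-anchored adhesion protein of axons, and *Inhbb* encodes a subunit of activins and inhibins. In the GRCm38 build, *Oxt* lies on chromosome 2 (130576173 to 130577054, plus strand) and its neighbour *Avp*, the vasopressin gene, on the opposite strand (130580620 to 130582554). *Reln* lies on chromosome 5 (21884454 to 22344702), *Ntng1* on chromosome 3 (109780040 to 110144011) and *Inhbb* on chromosome 1 (119415465 to 119422248), all on the minus strand.

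The clusters were drawn by the authors from these same counts. The levels of *Oxt*, *Reln*, *Ntng1*, *Inhbb* and the study's other marker genes are therefore given below as a description, with no test, and the p-values of all other genes describe agreement over plates and are not independent evidence that the clusters are distinct. Levels are CPM, the UMIs of a gene scaled to a common library total, in the summed cells of a plate, and each mean stands with its SD over 6 plates. Cluster 12 sums held 223946 to 867443 UMIs and cluster 1 sums 813856 to 4457394.

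*Oxt* was abundant in cluster 12 but well under its level in cluster 1. It ranged from 6055 to 20956 CPM (median 12747) over plates in cluster 12 and from 36375 to 82655 CPM (median 59064) in cluster 1, so that the plates of the clusters did not overlap. The means were 12960.3 ± 5093 CPM and 59362 ± 16682 CPM, and the fit gave a log2 fold change of -2.37 (SE 0.24).

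*Reln* showed the opposite order. It ranged from 53.6 to 297 CPM (median 201) in cluster 12 and from 0 to 6.24 CPM (median 0.424) in cluster 1, with a fitted log2 fold change of 7.33 (SE 0.62). *Ntng1* ranged from 103 to 322 CPM (median 141) in cluster 12 and from 0 to 3.69 CPM (median 0) in cluster 1, with a fitted log2 fold change of 7.38 (SE 0.84). All plates of cluster 12 lay above all plates of cluster 1 for both genes. *Inhbb* ranged from 25.4 to 122 CPM (median 104) in cluster 12, again above every plate of cluster 1, which ranged from 0 to 5.96 CPM (median 0), with a fitted log2 fold change of 6.30 (SE 1.15).

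**Figure D1:**
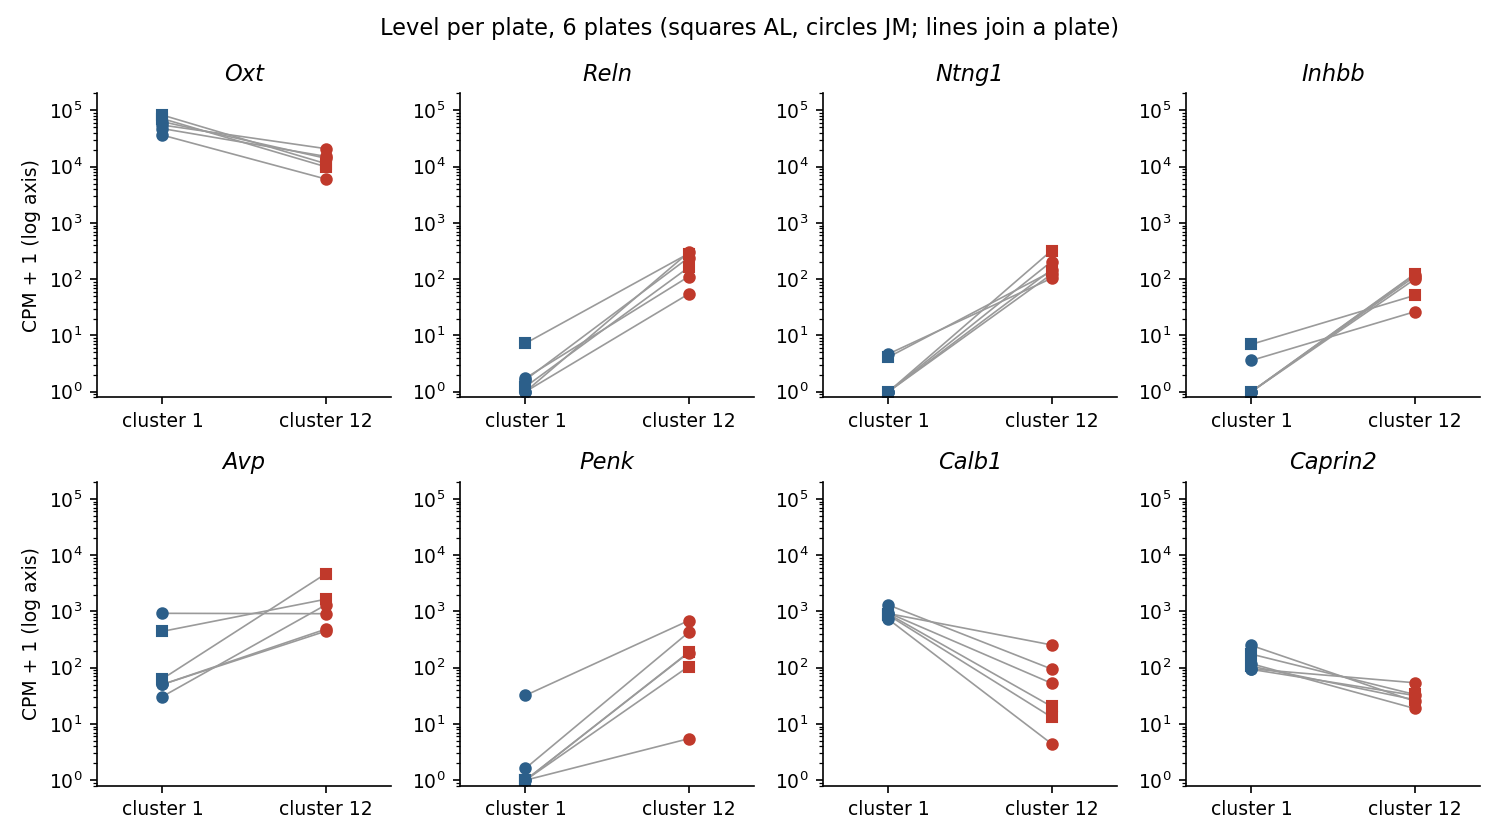
Level of 8 genes as CPM + 1 on a log axis in cluster 1 and cluster 12, each point the summed cells of a plate (squares AL, circles JM) and each line joining the clusters of a plate. *Oxt*, *Calb1* and *Caprin2* were lower in cluster 12 on all 6 plates, *Reln*, *Ntng1*, *Inhbb* and *Penk* were higher on all 6, and *Avp* was higher on 5.

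At least 1 UMI of *Ntng1* was present in 33 of 35 (94.3%, 95% interval 80.8% to 99.3%) cluster 12 cells, of *Reln* in 27 of 35 (77.1%, 95% interval 59.9% to 89.6%) and of *Inhbb* in 20 of 35 (57.1%, 95% interval 39.4% to 73.7%). In cluster 1 the counts were 3 of 114, 5 of 114 and 4 of 114 cells, at a median of 100902 UMIs per cell against 85124 in cluster 12. The 24 control wells of these plates held 0 UMIs of all 3 genes, which allows a share of wells of up to 12.5%, at a median of 91 UMIs per well. Among the 22 non-PVH cells, 15 of 22 had *Ntng1*, 2 of 22 *Reln* and 1 of 22 *Inhbb*. All 35 cluster 12 cells had *Reln* or *Ntng1*, 25 had both, and 15 had *Inhbb* as well. In cluster 1, 7 of 114 cells had either gene. With each cell thinned to 65160 UMIs, which left out 7 cells of cluster 12 and 8 of cluster 1, 25 of 28, 21 of 28 and 17 of 28 cells kept *Ntng1*, *Reln* and *Inhbb*.

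General markers of PVH neurons were present in cluster 12. *Otp*, a transcription factor of the PVH lineage, was found in 34 of 35 cells and *Snap25*, a synaptic protein gene of neurons, in 35 of 35. *Sim1*, which is needed to form the PVH, was found in 18 of 35 (51.4%, 95% interval 33.99% to 68.6%) cells of cluster 12 and 81 of 114 (71.1%, 95% interval 61.8% to 79.2%) of cluster 1, and in 0 of 22 cells of the non-PVH clusters 5, 6 and 11. *Slc17a6*, the vesicular glutamate transporter of these neurons, was near the same level in both clusters (153 ± 62.7 CPM and 144 ± 28.2 CPM, higher in cluster 12 on 3 of 6 plates). *Slc32a1*, the vesicular GABA transporter, had 0 UMIs in all 35 cells (upper limit 8.57% for cells with a UMI, not for cells that express it). It had a UMI in 5 of 22 non-PVH cells. Among 26 markers of glia and vessel cells, 9 had a UMI in cluster 12 and their summed level per plate was 6.50 to 75.9 CPM, against 20.1 to 69.5 CPM in cluster 1. The oligodendrocyte genes *Olig1*, *Olig2* and *Opalin*, the astrocyte genes *Aqp4* and *Gfap* and the endothelial gene *Cldn5* were at 0 in cluster 12. The oligodendrocyte gene *Mag* had 49 UMIs in cluster 12 and 47 in cluster 1, and the microglial gene *Aif1* had 19 and 0. Among 23 markers of other hypothalamic neurons, 8 had a UMI in cluster 12, with a summed level of 32.1 to 83.0 CPM per plate against 152 to 405 CPM in cluster 1. Most of the cluster 1 sum was *Th* (2318 UMIs, against 53 in cluster 12), and *Ghrh*, the growth hormone-releasing hormone gene, had 63 UMIs in cluster 12 and 19 in cluster 1. The part of other cells in the results below was not tested.

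Single cells of cluster 12 differed widely in *Oxt*. The level per cell ranged from 256 to 54724 CPM with a median of 10818, whereas cluster 1 cells ranged from 1240.2 to 119974 CPM with a median of 67416. *Oxt* was also read outside oxytocin neurons, since 17 of 24 control wells had a UMI (median 3, highest 18 UMIs) and the 208 cells of the other PVH clusters had a median of 77.7 CPM. All 35 cluster 12 cells lay above the median of the other PVH clusters of their own plate, and 30 lay above its 90th percentile. In cluster 1, 114 of 114 cells lay above that percentile. Of the cluster 12 cells, 25 lay below the lowest cluster 1 cell of their plate.

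A gap divided the *Oxt* levels of cluster 12. The 6 lowest cells, from 3 plates, had 256 to 1421 CPM, and the other 29 had 5314 CPM or more. All 6 low cells had *Penk*, the enkephalin precursor (74 to 2702 CPM), and *Avp* (185 to 23980 CPM). Of the other 29, 8 had *Penk* and 27 had *Avp*. The 6 cells had a median of 110233 UMIs, against 79684 in the other 29. This split was seen in the data, rests on *Oxt* itself and was not tested; the fit without cells under 5000 CPM of *Oxt*, added after the data were seen, left out these 6 and 2 cells of cluster 1.

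**Figure D2:**
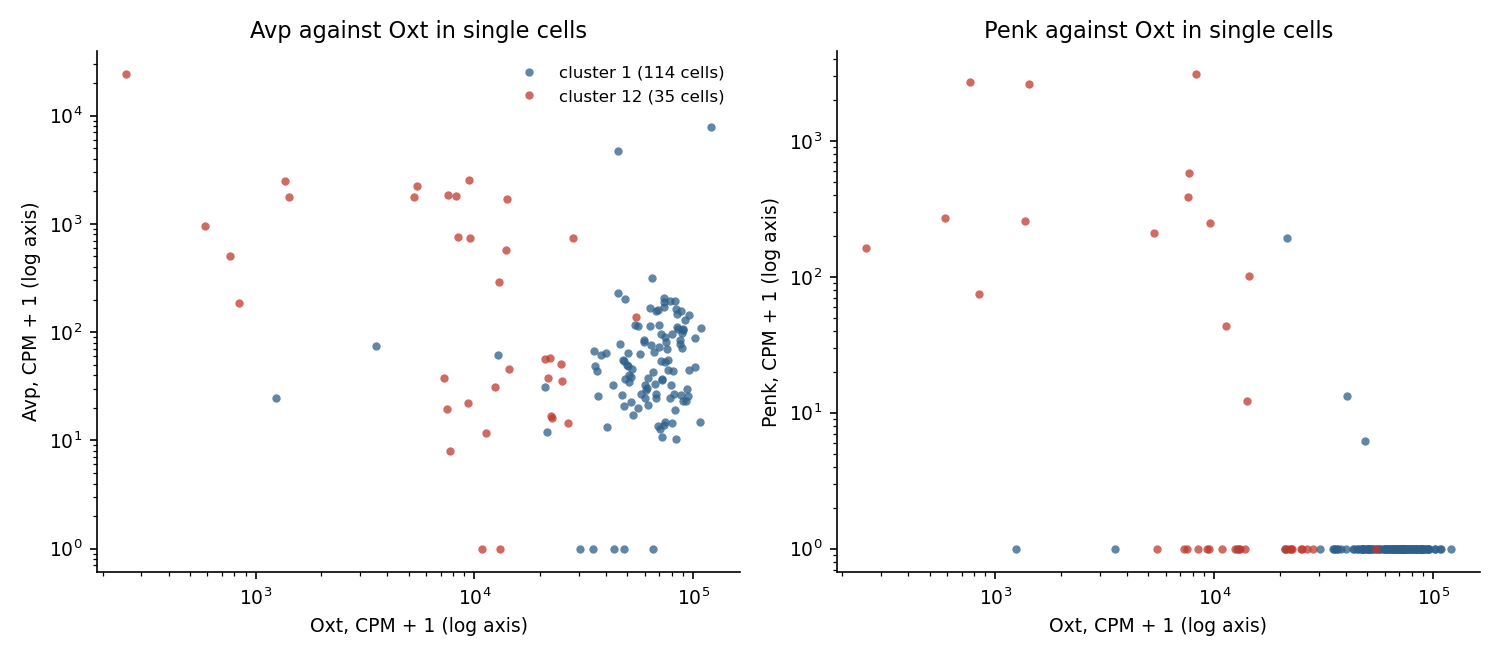
*Avp* (left) and *Penk* (right) against *Oxt* in single cells of cluster 12 (35) and cluster 1 (114) on the 6 plates, all as CPM + 1 on log axes. The 6 cluster 12 cells lowest in *Oxt* all lie above 0 for both other peptides, and most cluster 1 cells lie to the right of cluster 12.

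The other neuropeptides of the study's marker panel were mixed in cluster 12. *Penk* ranged from 4.47 to 685 CPM (median 185) in cluster 12 and from 0 to 31.2 CPM (median 0) in cluster 1, and was higher in cluster 12 on 6 of 6 plates, although the lowest plate of cluster 12 lay under the highest of cluster 1. It was found in 14 of 35 cluster 12 cells and 3 of 114 cluster 1 cells, and 3 cells held 69.6% of its UMIs in cluster 12. *Avp* ranged from 444 to 4653 CPM (median 1106) in cluster 12 and from 29.7 to 925 CPM (median 55.9) in cluster 1, and was higher on 5 of 6 plates. A single cell of plate AL6, with 23980 CPM of *Avp* and 256 CPM of *Oxt*, held 52.0% of the *Avp* UMIs of cluster 12, and in 4 of 35 cells *Avp* exceeded *Oxt*. *Avp* was also present in 14 of 24 control wells and in all 22 non-PVH cells, so a UMI of it in 33 of 35 cluster 12 cells cannot be told from background. At least 3 UMIs were present in 23 of 35 cluster 12 cells, 78 of 114 cluster 1 cells, 10 of 22 non-PVH cells and 6 of 24 control wells. *Pdyn*, the dynorphin precursor, was higher in cluster 12 on 5 of 6 plates (355 ± 211 CPM against 130.1 ± 59.8 CPM). Of 30 neuropeptide genes, 6 had counts enough for the fit. Among them were *Oxt*, *Penk*, *Avp* and *Pdyn*, which carry no test here, and the others did not pass. *Crh*, *Trh* and *Sst* were low in both clusters, at 10.2 ± 17.6 CPM, 1.82 ± 3.91 CPM and 8.08 ± 16.2 CPM in cluster 12.

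Across all genes, 7985 were tested and 154 were higher in cluster 12 (1.93% of those tested) and 228 lower (2.86%), the marker genes above included (edgeR quasi-likelihood fit, plates as blocks, Benjamini-Hochberg adjusted p under 0.05). Of these, 150 were higher and 210 lower on all 6 plates. In the 2 AL plates alone 38 genes were higher and 44 lower past the threshold, and in the 4 JM plates alone 43 and 56. The numbers fell when a plate was left out, to 96 higher and 147 lower without AL5, 96 and 145 without AL6, 102 and 134 without JM5, and 96 and 139 without JM6. The median log2 fold change of all genes tested was -0.17.

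**Figure D3:**
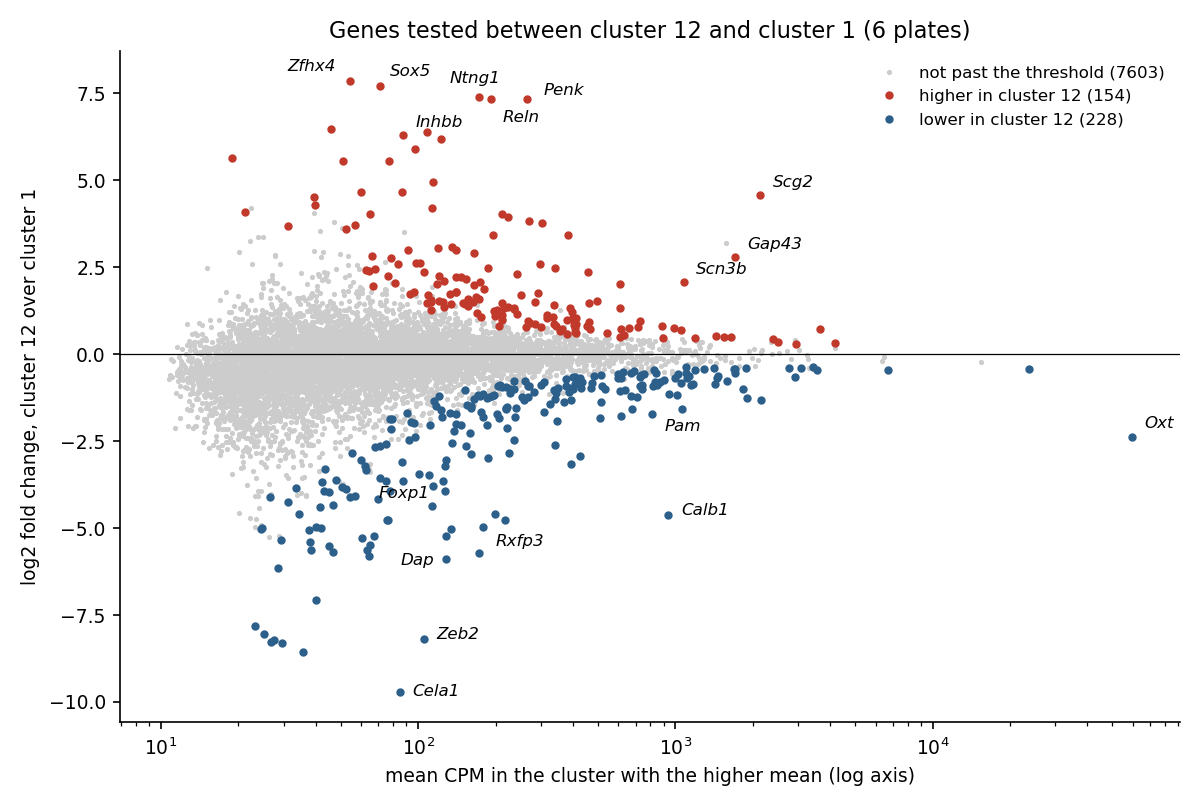
Fitted log2 fold change of cluster 12 over cluster 1 for the 7985 genes tested, against the mean level in the cluster where it is higher (CPM, log axis). Red points are the 154 genes higher in cluster 12, blue points the 228 lower and grey points the rest, and *Oxt* lies farthest to the right.

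Among the genes past the threshold that were higher on all 6 plates and had at least 20 CPM in cluster 12, the 12 largest fold changes included the markers *Ntng1*, *Penk*, *Reln* and *Inhbb*, and the other 8 follow. *Zfhx4*, a zinc-finger homeobox gene, ranged from 12.7 to 88.5 CPM (median 50.4) in cluster 12, where 20 of 35 cells had it, and held 2 UMIs in all of cluster 1. The ratio of the pooled levels was 321 times (95% counting interval 87.5 to 2672), and the adjusted p was 2.43e-04 (edgeR). *Sox5*, a transcription factor that guides neuron subtype choice in the cortex, ranged from 22.9 to 152 CPM (median 61.6) and was found in 28 of 35 cells, against 3 UMIs in 1 of 114 cells of cluster 1. Its ratio was 355 times (95% counting interval 120.1 to 1729.6) and its adjusted p 5.35e-04 (edgeR). The groups did not overlap for either gene. UMIs of these libraries are not single molecules (a median of 5.37 UMIs per captured spike-in molecule over the 6 plates). The counting intervals here and below take each UMI as independent, so they are too narrow even for counting error. They leave out the spread between cells and plates.

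*Ecel1*, a membrane peptidase of neurons, was found in 31 of 35 cluster 12 cells at 123 ± 28.5 CPM, against 7 of 114 cells and 2.53 ± 4.67 CPM in cluster 1, with log2 fold change 6.20 (SE 0.84, adjusted p = 6.85e-04, edgeR). *Sobp* followed at 108 ± 49.1 CPM against 1.28 ± 1.86 CPM, with log2 fold change 6.38 (SE 0.89, adjusted p = 8.66e-04, edgeR). *Caln1*, a neuronal calcium-binding protein, was at 45.7 ± 23.4 CPM against 0.431 ± 0.589 CPM, with log2 fold change 6.46 (SE 1.01, adjusted p = 0.00196, edgeR). *Sv2c*, a synaptic vesicle glycoprotein, was at 77.4 ± 11.8 CPM against 2.71 ± 4.12 CPM, with log2 fold change 5.56 (SE 0.97, adjusted p = 0.00439, edgeR). *Plxna4*, a receptor for semaphorins, was at 114 ± 70.6 CPM against 4.33 ± 5.37 CPM, with log2 fold change 4.97 (SE 0.94, adjusted p = 0.00747, edgeR). *Aldh3b2*, an aldehyde dehydrogenase, was at 50.8 ± 26.7 CPM and found in 13 of 35 cells, with log2 fold change 5.56 (SE 0.94, adjusted p = 0.00347, edgeR). These 6 genes were picked by fold change among genes higher on all 6 plates, which favours separation of the plates. No plate of cluster 12 overlapped cluster 1 for them. How many of all genes tested lacked overlap is not given, here or below. All 6 passed in each of the 6 fits without a plate. *Zfhx4* passed in 5 such fits and had too few counts to be tested without JM5.

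The 12 largest falls, by the same limits with the level taken in cluster 1, were of genes at or near 0 in cluster 12. *Cela1*, which encodes an elastase, had 0 UMIs in all 35 cells and ranged from 43.7 to 139 CPM (median 79.3) in cluster 1, where 69 of 114 cells had it. Measured against a floor of 3 UMIs over the group, it was at least 85.2-fold lower in cluster 12 (adjusted p = 0.00115, edgeR). That floor takes each UMI as a molecule, although the median was 5.37 UMIs per captured spike-in molecule. The fold limits here and in the next paragraph are therefore too high as bounds on molecules. *Snx31*, a sorting nexin gene, was at 0 as well and at least 40.5-fold lower (adjusted p = 0.0141, edgeR). *Zeb2*, a transcription factor of neuronal development, had 1 UMI in cluster 12 and 106 ± 40.7 CPM in cluster 1, a ratio of 307 times (95% counting interval 55.03 to 12144) with adjusted p = 3.54e-05 (edgeR). Of the 12 genes with the largest falls, 7 were at 0 in every cluster 12 plate.

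*Dap*, the death-associated protein gene, was found in 3 of 35 cluster 12 cells and 90 of 114 cluster 1 cells, at 2.31 ± 3.36 CPM and 129 ± 35.3 CPM, with log2 fold change -5.89 (SE 0.64, adjusted p = 1.16e-04, edgeR). *Ccdc109b*, which encodes a subunit of the mitochondrial calcium uniporter, was found in 1 and 74 cells, with log2 fold change -5.81 (SE 1.06, adjusted p = 0.00593, edgeR). *Casp1*, an inflammatory caspase, had 1 UMI in cluster 12 and 28.5 ± 17.6 CPM in cluster 1 (adjusted p = 0.00793, edgeR). *Mir670hg*, the host transcript of a microRNA, had 1 UMI in cluster 12 and 40.2 ± 7.26 CPM in cluster 1 (adjusted p = 0.00134, edgeR). Another 5 genes were at 0 in cluster 12 and close to the threshold. *Clic4* was at least 27.9-fold lower, *Fezf2* at least 29.1-fold, *Gstk1* at least 30.1-fold, *Eif2ak2* at least 24.7-fold and *Sema3c* at least 21.8-fold. Their adjusted p ran from 0.0199 to 0.0282 (edgeR), and leaving out JM6 took each of these 5 genes out of the calls, with adjusted p up to 0.0721 over the fits without a plate.

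Many genes that prepare and fold secreted proteins fell in cluster 12. Of 43 genes for translocation into and folding in the endoplasmic reticulum, 40 were tested, 0 rose and 15 fell (37.5% of those tested, against 2.86% of all genes). The median log2 fold change of the 40 was -0.71, against -0.17 over all genes, and 38 of the 40 values were below 0. *P4hb*, a disulfide isomerase, was at 202 ± 79.1 CPM against 617 ± 58.1 CPM, with log2 fold change -1.78 (SE 0.21, adjusted p = 1.97e-04, edgeR). The chaperone *Hsp90b1* was at 1005 ± 294 CPM against 1833 ± 431 CPM, with log2 fold change -1.01 (SE 0.14, adjusted p = 8.21e-04, edgeR). *Canx*, a chaperone that binds sugar chains, was at 396 ± 64.6 CPM against 739 ± 170.5 CPM, with log2 fold change -1.001 (SE 0.14, adjusted p = 9.99e-04, edgeR). *Sec11c*, a subunit of the signal peptidase, was at 514 ± 69.3 CPM against 830.0 ± 125 CPM, with log2 fold change -0.81 (SE 0.11, adjusted p = 8.74e-04, edgeR). The clusters did not overlap on any plate for these 4 genes, which were picked as those of the list with the smallest p. *Xbp1*, a transcription factor that raises folding capacity, fell as well (adjusted p = 0.00793, edgeR), whereas *Calr* (adjusted p = 0.487) and *Spcs1* (adjusted p = 0.714) did not pass (edgeR). Of the 15 genes, 8 passed in all 6 fits without a plate, and the count was 9 without AL5 and 9 without JM5. Without cells under 5000 CPM of *Oxt* 10 passed, with spike-in scaling 10, in the JM plates alone 4 and in the AL plates alone 1.

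**Figure D4:**
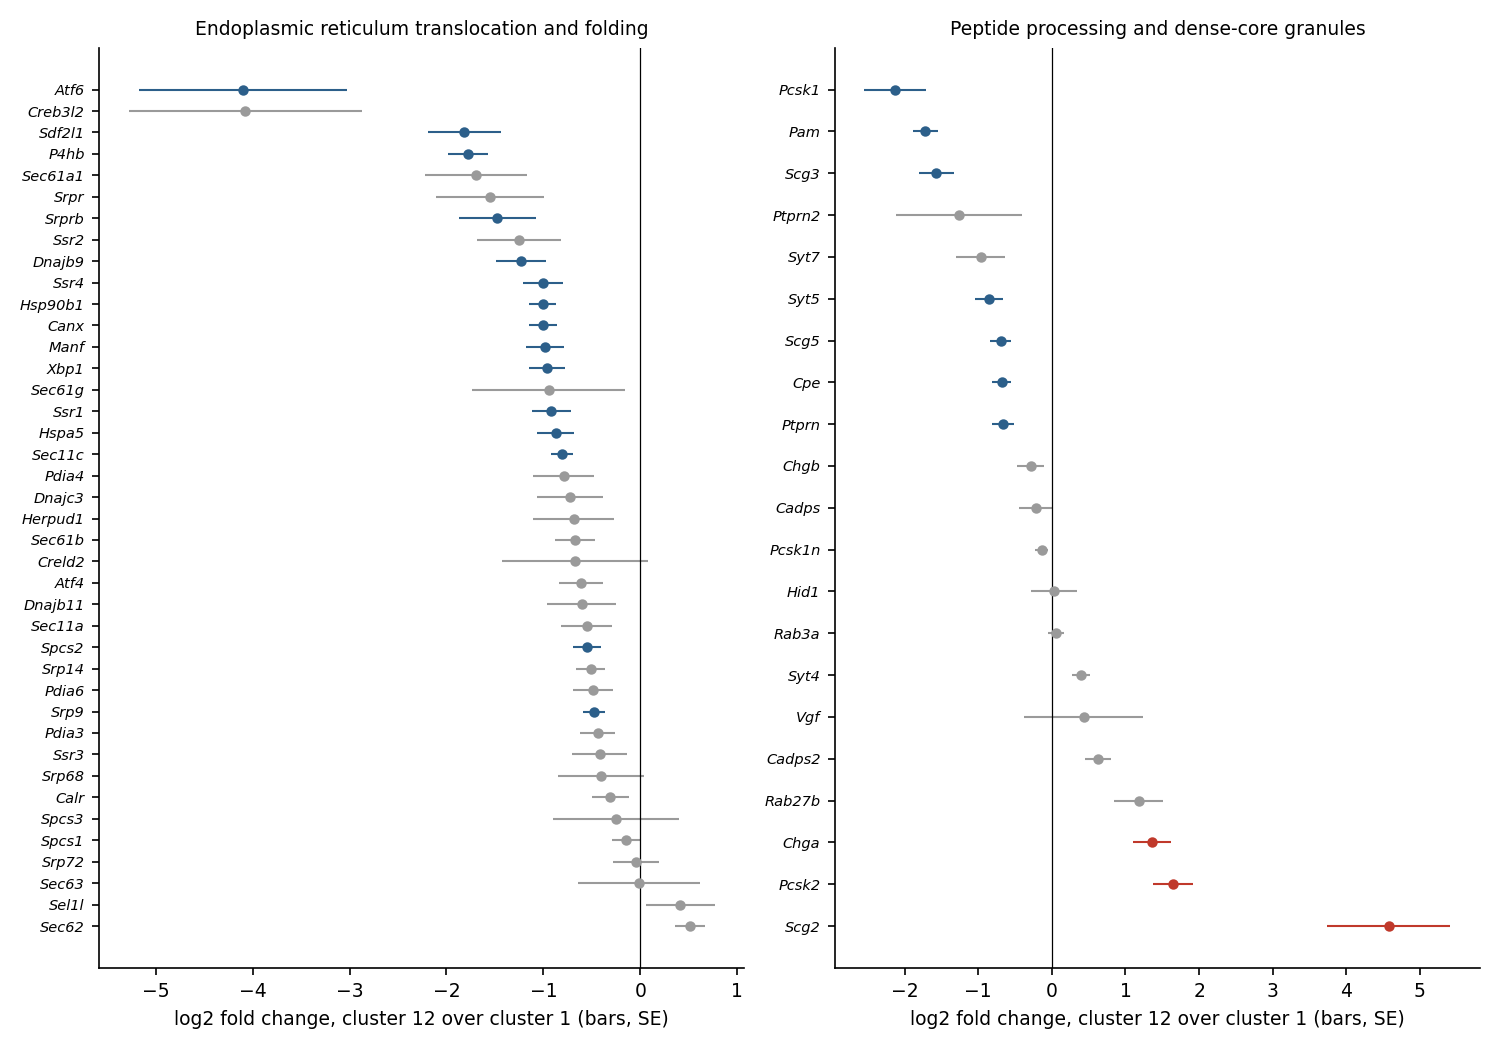
Fitted log2 fold change of cluster 12 over cluster 1 (points, with SE as bars) for the 40 tested genes of endoplasmic reticulum translocation and folding (left) and the 21 of peptide processing and dense-core granules (right). Blue marks genes past the threshold and lower, red past it and higher, grey not past it, and 38 of the 40 values on the left lie below 0.

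Peptide processing genes split into members that fell and members that rose. Of 23 genes, 21 were tested, 7 fell (33.3%, against 2.86% of all genes) and 3 rose (14.3%, against 1.93%). The median log2 fold change was -0.22, near the -0.17 of all genes. In the JM plates alone 2 fell and 0 rose, in the AL plates alone 1 fell and 1 rose, and with spike-in scaling 4 fell. *Pam*, the enzyme that amidates peptides such as oxytocin, ranged from 156 to 482 CPM (median 247) in cluster 12 and from 492 to 1096 CPM (median 813) in cluster 1, with log2 fold change -1.72 (SE 0.17, adjusted p = 4.93e-05, edgeR). The groups did not overlap. *Pcsk1*, a prohormone convertase, was at 61.8 ± 40.7 CPM against 222 ± 39.2 CPM, with log2 fold change -2.13 (SE 0.42, adjusted p = 0.00913, edgeR), whereas *Pcsk2*, the other neuronal convertase, was at 167 ± 38.8 CPM against 49.2 ± 11.3 CPM, with log2 fold change 1.64 (SE 0.27, adjusted p = 0.00272, edgeR). *Scg3*, a granule sorting protein, fell (83.3 ± 27.4 CPM against 219 ± 37.4 CPM, adjusted p = 0.00168, edgeR), and so did *Cpe*, the carboxypeptidase of the granule (983 ± 168 CPM against 1445 ± 161 CPM, adjusted p = 0.00793, edgeR). *Chga*, a core protein of granules, rose (223 ± 51.02 CPM against 81.2 ± 24.5 CPM, adjusted p = 0.00755, edgeR).

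*Scg2*, another granin, was in 35 of 35 cluster 12 cells and 47 of 114 cluster 1 cells. It ranged from 1264 to 2928 CPM (median 2139.8) in cluster 12 and from 17.1 to 382 CPM (median 57.7) in cluster 1, so that the plates did not overlap, with log2 fold change 4.58 (SE 0.84, adjusted p = 0.0412, edgeR). Its level in cluster 1 varied widely between plates, and it passed in 2 of the 6 fits without a plate (not without AL5, AL6, JM6 or JM8, adjusted p 0.00268 to 0.137 over the 6) and not without cells under 5000 CPM of *Oxt* (adjusted p = 0.169). *Pcsk2* and *Chga* passed in all 6.

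The 3 genes listed as marking magnocellular oxytocin neurons fell in cluster 12. *Calb1*, a calcium buffer, was in 9 of 35 cells of cluster 12 and 114 of 114 of cluster 1. It ranged from 3.46 to 253 CPM (median 35.7) and from 726 to 1302 CPM (median 908), with log2 fold change -4.64 (SE 0.70, adjusted p = 0.0106, edgeR). *Caprin2*, an RNA-binding protein, was at 30.8 ± 12.1 CPM against 138 ± 61.2 CPM, with log2 fold change -2.19 (SE 0.38, adjusted p = 0.00435, edgeR). *Kcnmb4*, an auxiliary potassium channel subunit, was at 28.6 ± 15.7 CPM against 93.5 ± 22.2 CPM, with log2 fold change -1.95 (SE 0.52, adjusted p = 0.0483, edgeR). No plate overlapped for these 3 genes. *Caprin2* passed in all 6 fits without a plate, *Calb1* in 5 (adjusted p = 0.0596 without JM8) and *Kcnmb4* in 1 (adjusted p 0.0316 to 0.155 over the 6, below the threshold only without JM8). Without cells under 5000 CPM of *Oxt* 1 of the 3 passed, namely *Caprin2*, in the AL plates alone 1, namely *Calb1*, and in the JM plates alone 0. The list for parvocellular oxytocin neurons did not move one way. Beside *Reln*, *Cnr1*, the cannabinoid receptor, was higher on 6 of 6 plates (49.8 ± 20.2 CPM against 10.6 ± 11.8 CPM) without passing (adjusted p = 0.105, edgeR). *Foxp1*, a transcription factor, fell from 127 ± 23.3 CPM in cluster 1 to 10.3 ± 11.7 CPM, with log2 fold change -3.95 (SE 0.60, adjusted p = 0.00168, edgeR), and was found in 8 of 35 against 102 of 114 cells.

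Of 59 transcription factors of the PVH, 20 were tested, of which 4 rose and 4 fell (20% each, against 1.93% and 2.86% of all genes). Of the 8, *Sox5*, *Zeb2* and *Foxp1* passed in all 6 fits without a plate. Beside *Zfhx4* and *Sox5*, *Lhx5* rose (31.1 ± 19.9 CPM against 2.20 ± 1.63 CPM, adjusted p = 0.0353, edgeR), but in none of the 5 fits without a plate that could test it (adjusted p 0.0627 to 0.132). The imprinted gene *Peg3* rose by a small amount (899 ± 166 CPM against 598 ± 143 CPM, adjusted p = 0.0352, edgeR), and passed only without JM5 among those fits (adjusted p 0.0462 to 0.166 over the 6). Beside *Zeb2*, *Foxp1* and *Fezf2*, *Tshz1* fell (11.3 ± 9.54 CPM against 86.6 ± 15.2 CPM, adjusted p = 0.0126, edgeR), with adjusted p = 0.0531 without JM6.

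Among enzymes that make transmitters, *Th*, the first enzyme of catecholamine synthesis, fell in cluster 12. It was at 10.96 ± 18.2 CPM against 199 ± 107 CPM, in 9 of 35 against 101 of 114 cells, with log2 fold change -4.59 (SE 0.52, adjusted p = 1.72e-04, edgeR). *Nos1*, the neuronal nitric oxide synthase, was in 13 of 35 against 114 of 114 cells, with log2 fold change -2.48 (SE 0.48, adjusted p = 0.00793, edgeR), and 1 cell held 49.8% of its UMIs in cluster 12. These were the 2 genes that fell among 7 tested of this list (28.6%, against 2.86% of all genes).

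In reelin and netrin-G signalling, *Ptprf* was the only gene to pass beside the markers. Of 24 genes, 16 were fitted, among them *Reln* and *Ntng1*, which carry no test here. With these markers counted, 3 of the 16 rose (18.8%, against 1.93% of all genes) and 0 fell (against 2.86%). *Ptprf*, a receptor phosphatase, rose (127 ± 40.1 CPM against 45.7 ± 17.02 CPM, adjusted p = 0.0449, edgeR). This held only without JM6 among the fits without a plate (adjusted p 0.0499 to 0.161 over the 6). The remaining 13 did not pass. Of 47 genes of activin, inhibin and TGF-beta signalling, 17 were fitted, and beside *Inhbb*, which carries no test here, the other 16 did not pass. With *Inhbb* counted, 1 of the 17 rose (5.88%, against 1.93% of all genes) and 0 fell (against 2.86%). The share that rose is the marker itself and no result of the list. The median log2 fold change of the 17 was -0.05, against -0.17 over all genes.

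Several ion channel genes rose in cluster 12. *Scn3b*, an auxiliary sodium channel subunit, ranged from 649 to 1279 CPM (median 1132) in cluster 12 and from 183 to 267 CPM (median 239) in cluster 1 without overlap, with log2 fold change 2.08 (SE 0.15, adjusted p = 3.58e-06, edgeR). The sodium channel pore subunit *Scn2a1* was at 405 ± 131 CPM against 208 ± 82.2 CPM, with log2 fold change 0.85 (SE 0.17, adjusted p = 0.0106, edgeR), and had adjusted p = 0.0515 without AL6. *Asic2*, a proton-gated channel, was at 147 ± 77.6 CPM against 27.4 ± 11.2 CPM, with log2 fold change 2.21 (SE 0.41, adjusted p = 0.00623, edgeR). In all, 5 of 35 tested genes for sodium, calcium, HCN and TRP channels rose (14.3%, against 1.93% of all genes) and 1 fell (2.86%, the same share as of all genes), namely *Calb1*, which is a calcium buffer and not a channel.

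Of 74 potassium channel genes, 27 were tested, 3 rose (11.1%, against 1.93% of all genes) and 2 fell (7.41%, against 2.86%). *Kcnip4*, a partner of A-type channels, was at 284 ± 59.95 CPM against 93.2 ± 22.5 CPM, with log2 fold change 1.49 (SE 0.20, adjusted p = 7.38e-04, edgeR), and was the only 1 of the 5 to pass in all 6 fits without a plate. *Kcnk1* and *Kcnc1* rose and *Kcnip1* and *Kcnmb4* fell, with adjusted p from 0.0198 to 0.0483 (edgeR). Their adjusted p reached 0.108, 0.167, 0.155 and 0.155 over the fits without a plate, and the call was lost without AL5 and without AL6 for each of the 4.

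Receptor genes moved in both directions. *Rxfp3*, the receptor of relaxin-3, was in 3 of 35 cluster 12 cells and 107 of 114 cluster 1 cells. It ranged from 0 to 28.8 CPM (median 0) and from 143 to 218 CPM (median 182) without overlap, with log2 fold change -4.97 (SE 0.71, adjusted p = 9.99e-04, edgeR). Of 15 tested peptide, hormone and nuclear receptors it was the only 1 to pass (6.67% lower, against 2.86% of all genes). *Gabrq*, a GABA-A receptor subunit, held 6 UMIs in cluster 12 and was at 64.8 ± 10.9 CPM in cluster 1, with log2 fold change -5.48 (SE 0.75, adjusted p = 7.69e-04, edgeR). Of 29 tested glutamate and GABA receptor genes, the glycine receptors included, 4 rose (13.8%, against 1.93% of all genes) and 5 fell (17.2%, against 2.86%). Beside *Gabrq*, the metabotropic glutamate receptor genes *Grm3* and *Grm5* fell (adjusted p = 0.0198 and 0.0372, edgeR). *Gabrb1*, *Glra1*, *Glra2* and *Gria2* rose (adjusted p 0.018 to 0.0398, edgeR). None of *Grm3*, *Grm5*, *Gabrb1*, *Glra1*, *Glra2* and *Gria2* passed without AL5 or without JM6, and their adjusted p reached 0.155 over the fits without a plate. Of 4 tested monoamine and acetylcholine receptors, 1 rose (25%, against 1.93% of all genes). This was *Hrh1*, a histamine receptor (109 ± 44.5 CPM against 36.1 ± 15.4 CPM, adjusted p = 0.0445, edgeR), and the call held only without JM8 among those fits (adjusted p 0.0418 to 0.176 over the 6).

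*Gap43*, a growth-cone protein of axons, had the smallest adjusted p of the named genes tested. It was in 35 of 35 cluster 12 cells and ranged from 1344 to 2183 CPM (median 1671), whereas cluster 1 ranged from 169 to 339 CPM (median 199), with log2 fold change 2.80 (SE 0.16, adjusted p = 6.24e-07, edgeR). The groups did not overlap, and the call held in all 6 fits without a plate. *Nefm*, a neurofilament subunit, fell (344 ± 138 CPM against 712 ± 134 CPM), with log2 fold change -1.23 (SE 0.18, adjusted p = 0.00113, edgeR). Of 22 tested cytoskeletal genes, 2 rose (9.09%, against 1.93% of all genes) and 5 fell (22.7%, against 2.86%). *Tubb2a* (rose), *Prph*, *Tuba1a* and *Stmn2* (fell) had adjusted p from 0.0179 to 0.0462 (edgeR), and each lost the call without JM6 and without JM7, with values up to 0.193 over the fits without a plate (*Tubb2a*).

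Of 54 tested genes of cell adhesion and axon guidance, 4 rose (7.41%, against 1.93% of all genes) and 2 fell (3.70%, near the 2.86% of all genes). *Slit2*, a secreted guidance cue, was in 6 of 35 against 96 of 114 cells, at 5.15 ± 7.57 CPM and 135 ± 54.2 CPM, with log2 fold change -5.04 (SE 0.68, adjusted p = 6.51e-04, edgeR). *Negr1*, an adhesion protein, was at 141 ± 86.7 CPM against 27.3 ± 15.02 CPM, with log2 fold change 2.21 (SE 0.41, adjusted p = 0.00712, edgeR). The protocadherin *Pcdh9* rose to 163 ± 60.8 CPM from 52.5 ± 15.4 CPM, with log2 fold change 1.499 (SE 0.30, adjusted p = 0.00939, edgeR). *Pcdh7* rose as well (adjusted p = 0.0115, edgeR), with adjusted p = 0.0515 without AL6.

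Immediate early genes, which neurons switch on with activity or handling, had a median log2 fold change of -1.63 over 10 tested genes, against -0.17 over all genes. Of the 10 values, 9 were below 0. *Fosl2* was the only 1 to pass (10% lower, against 2.86% of all genes), in 11 of 35 against 112 of 114 cells, with log2 fold change -3.22 (SE 0.47, adjusted p = 0.00114, edgeR). In the alternative fits, 3 genes of the list fell with DESeq2 and 3 with means over cells. Those fits also called more of the 7985 genes lower, namely 526 and 312, against 228 in the main fit. Activity and handling were not recorded per cell in the sources used here.

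No cell measure passed the test, which after adjustment over 5 measures could not pass a single measure alone. The median total of UMIs per cell was 71251 to 146886 over plates in cluster 12 and 81464 to 183529 in cluster 1, lower in cluster 12 on 4 of 6 plates (mean log2 ratio -0.17 ± 0.33 SD, exact sign-flip permutation test, two-sided, p = 0.312, adjusted over 5 measures 0.547). Gene UMIs per spike-in UMI, a measure of RNA per cell, were 6.15 to 19.3 and 8.01 to 22.4, lower in cluster 12 on the 4 JM plates and higher on both AL plates (mean log2 ratio -0.30 ± 0.32 SD, exact p = 0.125, adjusted 0.547). The number of genes detected differed by -0.05 ± 0.15 in log2 units (exact p = 0.438, adjusted 0.547). At equal UMIs, which 4 plates allowed, it differed by 0.04 ± 0.07 (exact p = 0.375, adjusted 0.547). The mitochondrial share was 3.23% in both clusters (difference 0.003 ± 0.44 percentage points, exact p = 1, adjusted 1). The smallest p that 6 plates allow is 0.0312, and 4 plates 0.125. A single measure at 0.0312 would stay above 0.05 after the adjustment, so these results do not show that RNA content was equal.

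Several genes that set cluster 12 apart from cluster 1 were also high in PVH clusters without much *Oxt*. *Reln* was at 325 ± 95.1 CPM over 6 plates in cluster 14 and 205 ± 108 CPM over 5 plates in cluster 15, around the 191 ± 98.9 CPM of cluster 12. *Ntng1* was at 144 ± 43.3 CPM in cluster 14 and 121 ± 70.9 CPM over 3 plates in cluster 13. *Gap43* was at 1609 ± 136 CPM in cluster 14 and 1481 ± 276 CPM in cluster 15, and *Caln1* at 70.1 ± 46.1 CPM and 57.8 ± 43.4 CPM. *Penk* was at 1244 ± 1161 CPM in cluster 14 and 369 ± 296 CPM in cluster 15, against 264 ± 248 CPM in cluster 12. *Zfhx4* was at 53.4 ± 11.3 CPM in cluster 13, against 54.2 ± 27.2 CPM in cluster 12. *Ecel1* was at 98.9 ± 60.1 CPM in cluster 15, against 123 ± 28.5 CPM in cluster 12. *Sox5*, *Sobp*, *Sv2c*, *Aldh3b2* and *Plxna4* had higher means in cluster 12 than in clusters 13, 14 and 15. *Inhbb* was at 2.02 ± 3.59 CPM in cluster 14 and 0 in clusters 13 and 15, against 87.4 ± 40.03 CPM in cluster 12. In cluster 4 it was at 7.87 ± 17.6 CPM over 5 plates, with 39.3 CPM on the highest, which is above the lowest cluster 12 plate (25.4 CPM). *Oxt* was at 161 ± 95.3 CPM in cluster 14 and 566 ± 1096 CPM in cluster 15. *Cela1* and *Zeb2*, at or near 0 in cluster 12, were at 1.25 ± 3.06 CPM and 59.97 ± 56.9 CPM in cluster 14. Outside cluster 1 the highest mean of *Cela1* was 7.29 ± 10.1 CPM, in cluster 4, so it was low in the other PVH clusters too. These levels were not tested, since the clusters were drawn on them.

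**Figure D5:**
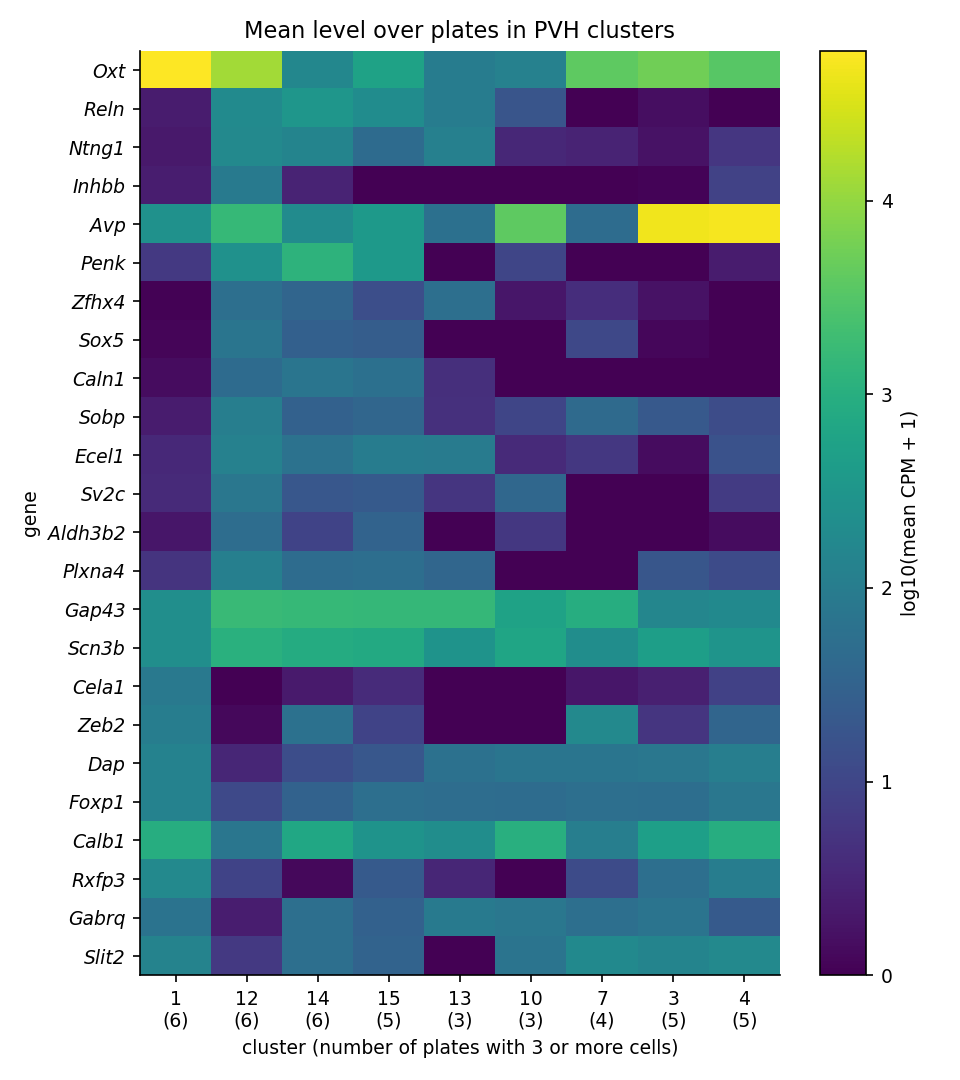
Mean level over plates, as log10(mean CPM + 1), of 24 genes in 9 PVH clusters with 3 or more cells on at least 3 of the 6 plates (number of plates in brackets). The column of cluster 12 resembles those of clusters 14 and 15 for *Reln*, *Caln1* and *Gap43*, while the mean of *Inhbb* is highest in cluster 12 among the 9 columns (87.4 CPM, next 7.87 CPM in cluster 4).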

How the data were processed

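UMIs were counted in single cells with Smart-SCRB chemistry. The authors deposited raw UMI counts for 48397 genes and 92 ERCC spike-ins in 960 wells of 10 plates, and a table of 706 cells after quality control with a cluster number per cell. Their clusters came from iterative clustering of gene modules. The submitters' processing notes name Trimmomatic 0.36, STAR 2.5.3a and the build GRCm38.p5. The authors' totals, also counts, matched in all 706 cells a subtraction of control-well counts, which is an alternative here. Whether counting used strand and how UMIs were corrected are not given in the sources used here.

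Counts as deposited were summed per plate and cluster (at least 3 cells) and tested with edgeR 4.0.16 (TMM, filterByExpr, robust quasi-likelihood, plate as block, R 4.3.3). DESeq2 1.42.0 and limma 3.58.1 were alternatives. Cell measures used exact sign-flip permutation (64 flips). Simulated data tested the fits. Members, gene lists and tests were chosen with earlier results of these data known. Named were the marker panel, the 12 largest changes per direction past the threshold on all 6 plates at 20 CPM or more in the higher cluster, up to 4 genes per list and direction by smallest p, and the magnocellular and parvocellular lists. *Otp* and *Snap25*, *Ghrh*, single glial genes, and *Xbp1*, *Calr* and *Spcs1* were named after their values were seen. Of list genes, 2 matched by an older symbol through RefSeq. Positions are from the GENCODE annotation of GRCm38. Alternatives covered the tool, scaling, filter, block, cells per sum, plates, clusters in the fit, thinning and control wells. Python 3.11.15, numpy 2.4.6, pandas 2.3.3, scipy 1.17.1 and matplotlib 3.10.9 were used. Results of some list members are not reported here. The list of well barcodes and the cluster membership values were not used here.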

Additional observations from a re-analysis of the deposited data

Results flagged for a closer look

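For 8 named genes a single plate stood apart from the other 5 in the log2 ratio of CPM + 1, cluster 12 over cluster 1, by Dixon's test at 95%. In all, 92 series of plate values were examined, and chance flags about 1 in 20.

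Plate JM7, which has 3 cells of cluster 12, was lowest for *Sim1* (-5.81, against -1.52 to 0.27 on the other 5 plates), for *Npy1r* (-2.56, against -0.29 to 0.10 on the other 5 plates) and for *Sema3c* (-5.72, against -4.44 to -3.87 on the other 5 plates). *Sim1* had 0 UMIs in those 3 cells, and *Npy1r* had 1 UMI in all of cluster 12 and 7 in cluster 1. Plate AL6 was highest for *Ccdc109b* (-1.67, against -6.47 to -5.32 on the other 5 plates), where 1 cell held all 10 UMIs of cluster 12, and for *Grm3* (-0.85, against -6.20 to -4.62 on the other 5 plates). Plate JM5 was highest for *Grm5* (-0.11, against -6.16 to -4.18 on the other 5 plates), where 1 cell held all 57 UMIs of cluster 12. Plate JM8, with 3 cells, was lowest for *Kcnmb4* (-6.28, against -2.28 to -0.90 on the other 5 plates), and AL5, with 4 cells, was lowest for *Scg3* (-2.40, against -1.50 to -1.06 on the other 5 plates).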

How the results depend on the processing

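Counts of genes higher in cluster 12 and genes lower in cluster 12 (154 and 228) depended on the tool and on the number of plates. They were 316 and 526 with DESeq2, 233 and 312 with limma on means over cells, 96 and 170 with spike-in scaling, 99 and 191 with all PVH clusters in the fit, 61 and 67 with at least 5 cells per sum (3 plates), 38 and 44 in the AL plates alone, 43 and 56 in the JM plates alone, and 205 and 479 with no filter (20475 genes tested). Without a plate they ranged from 96 to 141 and from 134 to 200. They were 98 and 156 without cells under 5000 CPM of *Oxt*, which was chosen after seeing the data. With no replicate block (plate pairing) they were 174 and 213, with other size factors 163 and 229, with *Oxt* and *Avp* out of the library size 157 and 229, with thinned cells 137 and 158 and with control wells subtracted 150 and 226. The log2 fold change of *Slc17a6* (-0.12) changed sign with at least 5 cells per sum (0.061), without AL5 (0.0019) and without JM8 (0.049), and ranged from -0.31 to 0.049 over the fits without a plate. No other named gene reversed under the alternatives run. Of 71 named genes past the threshold, 41 passed in all 6 fits without a plate, 71 with DESeq2, 68 without the block, 58 with spike-in scaling, 28 in the JM plates and 17 in the AL plates. *Cnr1* passed with DESeq2, limma and no filter. The 5 cell measures passed the threshold under no alternative, but with fewer than 6 plates the test cannot reach it. With 6 plates a single measure alone cannot reach it after the adjustment. Plates with 3 or 4 cluster 12 cells limit the depth, with sums down to 223946 UMIs.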

Other observations

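Plates that carry the same number in their names share a set of well barcodes, so that 182 of the 379 cells of the 6 plates had the barcode of a cell on another of these plates. Among the 35 cells of cluster 12, 23 did so, 7 with a cluster 1 cell and 6 with another cluster 12 cell. Exchange of reads between plates was not tested.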
